A study of Mus musculus with 12 samples.

Results

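Dendritic cells take up antigen in tissues, carry it to lymph nodes and present it to T cells. The 10 genes described here trace that course in the mouse. Flt3 is the receptor for the growth factor that drives dendritic cell development. Zbtb46, Batf3 and Irf8 are transcription factors of the lineage, and Batf3 and Irf8 are needed for the cross-presenting type 1 conventional dendritic cell (cDC1). Clec9a and Xcr1 are surface receptors of cDC1, and Naaa is a lysosomal amidase that cDC1 express. Ccr7, Fscn1 and Ccl22 mark dendritic cells that have matured and begun to migrate. The genes were picked by name from a count table of 25919 gene symbols, with their values in view, because they differ between 2 groups of libraries and because 1 library carries more of several of them. Their levels are therefore given as a description, without a test.

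The study sequenced poly(A) RNA from liver samples of 7-week-old C57BL/6 mice from the 3′ end, in 12 libraries. This account uses the 4 libraries labelled CD40 at day 2 and the 2 labelled Kupffer cells, the resident liver macrophages, at day 0. CD40 is a co-stimulatory receptor of antigen-presenting cells. The labels name no treatment and no genetic change, do not give what the days count from or how cells were obtained, and give no word on whether each library is a separate animal. Spread between libraries, and any p-value resting on it, may thus be partly technical. Cell type label and day differ together between the 2 groups and cannot be told apart. The columns carry no replicate numbers, so the CD40 day 2 libraries are called a, b, c and d and the Kupffer day 0 libraries a and b, in table order.

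Errors after ± are SDs over 4 CD40 and 2 Kupffer libraries unless marked SE. Levels are CPM, counts per 1000000 of the library total after TMM adjustment, so each is a share of the RNA sampled. In such bulk libraries, fewer cells of a type and less RNA per cell cannot be told apart. Total counts were 1182437, 725683, 2271228 and 1775691 in CD40 day 2 a to d, and 1612435 and 688498 in Kupffer day 0 a and b. Cd40 itself stood at 382, 375, 340 and 225 CPM in the CD40 libraries, against 20.1 and 18.1 CPM in the Kupffer libraries. Summed over 10 classical monocyte markers, the CD40 libraries held 16690 to 23783 CPM and the Kupffer libraries 1630 and 1460 CPM. The 10 liver endothelial markers summed to 232 to 664 CPM in the CD40 libraries and to 14715 and 15942 CPM in the Kupffer libraries, whose 10 Kupffer cell markers summed to 4809 and 4269 CPM. The libraries labelled Kupffer cells thus carried RNA of endothelial marker genes as well.

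The 250 bases before the start of 3 of the genes are shown because these genes stand for the patterns described below. Fscn1 and Xcr1 were among those concentrated in CD40 day 2 b, and Irf8 was spread over all 4 CD40 libraries. The windows come from RefSeq on GRCm38.p6, which holds 9 of the 10 genes and not Ccr7, and the first of the windows listed for Irf8 is shown. They are written 5′ to 3′ on the gene's strand, with capitals marking a match on either strand to TGACGTCA, the cyclic AMP response element, or to TATAAA, the TATA box.
Fscn1 (chr5:142960105-142960354, plus strand)
Fscn1: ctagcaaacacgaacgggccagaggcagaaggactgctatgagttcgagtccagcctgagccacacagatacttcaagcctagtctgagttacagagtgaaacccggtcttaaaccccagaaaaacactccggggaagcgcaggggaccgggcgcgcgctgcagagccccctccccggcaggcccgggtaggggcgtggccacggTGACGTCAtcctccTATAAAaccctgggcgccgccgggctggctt
Xcr1 (chr9:123862030-123862279, minus strand)
Xcr1: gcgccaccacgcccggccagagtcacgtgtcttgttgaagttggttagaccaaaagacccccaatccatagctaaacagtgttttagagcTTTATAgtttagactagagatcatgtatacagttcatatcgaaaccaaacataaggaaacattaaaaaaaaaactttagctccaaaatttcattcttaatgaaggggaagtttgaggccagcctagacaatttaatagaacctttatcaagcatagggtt
Irf8 (chr8:120736108-120736357, plus strand)
Irf8: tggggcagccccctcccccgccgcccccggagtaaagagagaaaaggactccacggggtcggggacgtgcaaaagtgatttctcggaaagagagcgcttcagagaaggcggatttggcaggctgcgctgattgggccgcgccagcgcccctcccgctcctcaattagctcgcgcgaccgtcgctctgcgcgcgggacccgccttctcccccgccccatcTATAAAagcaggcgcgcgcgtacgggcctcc

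In Fscn1 and in Irf8 the TATAAA match began 31 bases before the annotated start, and in Fscn1 the TGACGTCA match began 45 bases before it. In Xcr1 the TATAAA match lay 160 bases before the start. Among 32851 windows of this length, 12.4% held TATAAA and 1.55% held TGACGTCA. Of the 9 genes, 4 held the first (Clec9a, Fscn1, Irf8 and Xcr1) and Fscn1 alone the second. Zbtb46 held the AP-1 motif TGANTCA, found in 6.75% of windows. Its window, chr2:181424389-181424638 on the minus strand, lies inside the gene as annotated, which begins at 181459426 on that strand. Matches to the NF-kappaB consensus, to the interferon-stimulated response element and to the joint ETS and IRF element were in none of the 9 windows, against 3.90%, 2.98% and 2.30% of all windows. No motif was thus common to the 9 windows, and the windows of Fscn1 and Irf8, 62.4% and 67.2% G and C, differed in base composition from that of Xcr1, at 38.8%.

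Set against Kupffer day 0, 8 of the 10 genes had a higher mean in CD40 day 2 and 2, Zbtb46 and Fscn1, a lower one. Across all 9852 genes tested in this comparison, 53.4% passed an adjusted p of 0.05, with 23.2% higher and 30.2% lower in CD40 day 2. For 7 of the 10 genes the values of the CD40 and Kupffer libraries stood fully apart, as for 66.6% of all genes tested, and for 5 of these every CD40 library was higher, as for 29.7% of all genes tested. The genes were chosen on this contrast, so nothing is read from these counts. Only Ccl22 had too few counts for the test across genes.

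**Figure D1:**
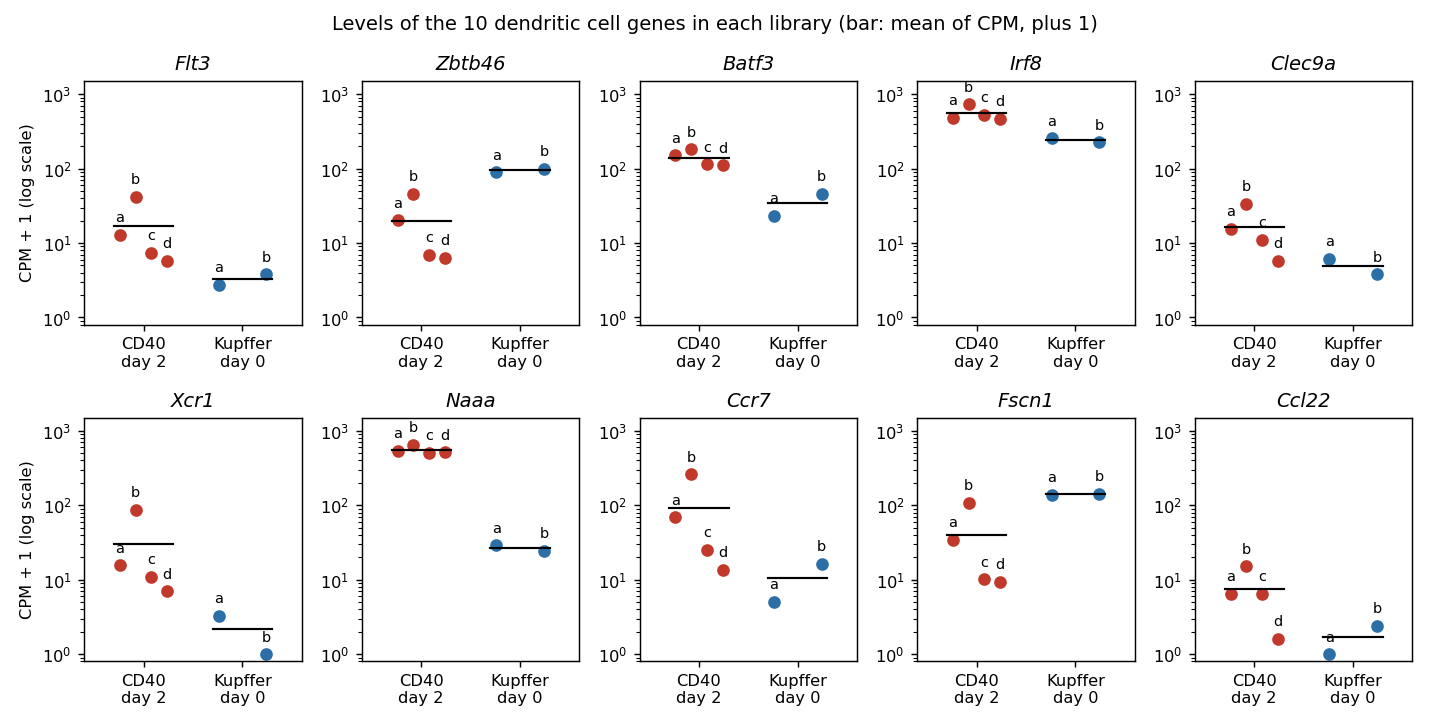
Level of each of the 10 genes in every library, as CPM plus 1 on a log scale, with CD40 day 2 (red, a to d) left of Kupffer day 0 (blue, a and b). Bars mark the mean CPM plus 1. Library b is the highest CD40 point in all 10 panels, and only Zbtb46 and Fscn1 have every CD40 point below both Kupffer points.

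Flt3 lies on chromosome 5 from 147330741 to 147400489 and overlaps a predicted gene on the opposite strand. It stood at 11.8, 41.0, 6.37 and 4.77 CPM in CD40 day 2 a to d, against 1.72 and 2.79 CPM in Kupffer day 0 a and b. All 4 CD40 libraries were above both Kupffer libraries, and library b held 29 of the 64 CD40 counts. The Kupffer libraries held 5 counts together, so the ratio of the pooled rates was 5.54 with a 95% counting interval of 2.26 to 17.6. The ratio of means was 7.10 with all libraries and 3.40 without CD40 b. Intervals of this kind cover counting error only.

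Among the transcription factors, Irf8 and Batf3 were higher in every CD40 library. Irf8, on chromosome 8 from 120736358 to 120756694, was at 482, 727, 527 and 463 CPM in CD40 day 2 a to d, against 254 and 226 CPM in Kupffer day 0. The CD40 mean was 550 CPM (SD 121, n = 4) and the Kupffer mean 239.98 CPM (SD 20.3, n = 2), a ratio of 2.29. Monocytes and macrophages also depend on Irf8, so it does not mark dendritic cells alone. A predicted gene overlaps it on the same strand, as one does Zbtb46. Batf3, on chromosome 1 from 191097847 to 191108945, had 150, 180, 113 and 110 CPM in CD40 day 2 a to d, against 22.4 and 44.6 CPM in Kupffer day 0. The 2 Kupffer libraries differed from each other for Batf3 by a ratio of 1.99. The SD was 15.7 CPM on a Kupffer mean of 33.5 CPM, and 33.2 CPM on a CD40 mean of 138 CPM.

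Zbtb46, on chromosome 2 from 181387762 to 181459426, was lower, with 19.1, 45.3, 5.92 and 5.36 CPM in CD40 day 2 a to d, against 88.4 and 98.9 CPM in Kupffer day 0. Every CD40 library was below both Kupffer libraries, yet CD40 b stood above the other 3. In the mouse, endothelial cells express Zbtb46 too. All 10 endothelial markers passed the test as lower in CD40 day 2, with the sums given above, and their part in the level of Zbtb46 in Kupffer day 0 was not tested. Within CD40 day 2 the endothelial sum was highest in a, at 664 CPM, and was 284 CPM in b, 280 CPM in c and 232 CPM in d. Kdr, a growth factor receptor on that list, was at 42.8, 97.6, 22.3 and 16.7 CPM in CD40 day 2 a to d, in the same order of libraries as Zbtb46, while the other markers on the list were highest in a. The ratio of the CD40 mean of Zbtb46 to the Kupffer mean was 0.202 with all libraries and 0.108 without CD40 b.

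The cDC1 receptors Clec9a and Xcr1 were low outside CD40 b. Xcr1, the receptor for the chemokine Xcl1, lies on chromosome 9 from 123852315 to 123862029. It stood at 14.6, 86.3, 10.01 and 5.96 CPM in CD40 day 2 a to d, against 2.30 and 0 CPM in Kupffer day 0 a and b, where 0 counts allow up to 4.18 CPM (3 counts). Library b held 61 of the 109 CD40 counts, and the groups did not overlap. The pooled ratio to Kupffer day 0, which held 4 counts, was 11.8 with a counting interval of 4.48 to 44.1. The ratio of means was 25.4 with all libraries and 8.86 without CD40 b.

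Clec9a, a receptor for the actin filaments of dead cells on chromosome 6 from 129408862 to 129424763, had 14.6, 32.5, 10.01 and 4.77 CPM in CD40 day 2 a to d, against 5.17 and 2.79 CPM in Kupffer day 0. The groups overlapped, since CD40 d lay between the Kupffer libraries. The ratio of means was 3.89 with all libraries and 2.46 without CD40 b. On the same strand the annotation of Clec9a overlaps Clec1b, a marker on the Kupffer cell list that stood at 7.07 to 19.1 CPM in CD40 day 2 and at 518 and 501 CPM in Kupffer day 0. Counts of the 2 genes may thus not be fully apart, and the 9 and 2 counts of Clec9a in the Kupffer libraries are uncertain for that reason.

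Naaa, on chromosome 5 from 92257659 to 92278170, varied least of the 10 genes among the CD40 libraries relative to its mean, with 536, 644, 508 and 515 CPM in CD40 day 2 a to d, against 28.1 and 23.7 CPM in Kupffer day 0. The ratio of means was 21.3, and it was 20.1 without CD40 b. Here the groups stood apart by far more than their own spread, with a CD40 mean of 551 CPM (SD 63.1) and a Kupffer mean of 25.9 CPM (SD 3.15).

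The 3 maturation genes were also highest in CD40 b. Ccr7, which guides mature dendritic cells along chemokine gradients into lymph vessels, lies on chromosome 11 from 99144196 to 99155077. It was at 68.3, 259, 24.1 and 12.5 CPM in CD40 day 2 a to d, against 4.02 and 15.3 CPM in Kupffer day 0 a and b. CD40 d fell between the Kupffer libraries, so the groups overlapped, while CD40 b held 183 of the 332 CD40 counts. The ratio of means was 9.41 with all libraries and 3.62 without CD40 b.

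Naive T cells and B cells also carry Ccr7. The 9 T cell markers in the table summed to 26.9 CPM in CD40 b and to 15.02 to 20.02 CPM in the other 3 CD40 libraries, with Cd3e, Cd3g and Cd5 at 0 counts in b. The 8 B cell markers summed to 26.9 CPM in b and to 17.3 to 21.4 CPM in the other 3, with Cd79a, Pax5 and Ebf1 at 0 counts in b. The defining markers of both lineages were thus at or near 0 in the library where Ccr7 was highest.

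Fscn1 encodes fascin, which bundles actin filaments in the protrusions of mature dendritic cells, and lies on chromosome 5 from 142960343 to 142973185. Its levels were 33.7, 106, 9.10 and 8.34 CPM in CD40 day 2 a to d, against 138 and 141 CPM in Kupffer day 0. All CD40 libraries were below both Kupffer libraries, with b nearest to them. The ratio of the CD40 mean to the Kupffer mean was 0.282, and it was 0.122 without CD40 b. Other cell types, fibroblasts among them, also make fascin, and 9 of 9 tested stellate cell and fibroblast markers were lower in CD40 day 2. The 10 markers on that list summed to 35.4 to 126 CPM in CD40 day 2, against 1729 and 1458 CPM in Kupffer day 0. Their part in the Kupffer level of Fscn1 was not tested. Within CD40 day 2 these markers were lowest in b, at 35.4 CPM.

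Ccl22, a chemokine that draws regulatory T cells and is made by mature dendritic cells and by macrophages, lies on chromosome 8 from 94745590 to 94751699. It was rare throughout, with 5.46, 14.1, 5.46 and 0.596 CPM in CD40 day 2 a to d, from 6, 10, 12 and 1 counts, against 0 and 1.39 CPM in Kupffer day 0 a and b, from 0 and 1 counts. The groups overlapped within the limit of a 0 count in Kupffer a, 1.72 CPM. The pooled ratio was 12.6, but its counting interval ran from 2.08 to 513. The ratio of means was 9.21 with all libraries and 5.51 without CD40 b.

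Library b of CD40 day 2 was the highest of its group for all 10 genes. Across all genes tested, b was the highest for 30.2%, a for 24.7%, c for 18.6% and d for 26%. For 7 of the 10, b stood over 2 times the mean of the other 3 CD40 libraries, where 6.18% of all genes tested did so. The genes were picked with this pattern in view and b is 1 library, so these shares describe and do not test. Ratios of b to the mean of the other 3 ran down from Xcr1 (8.48) through Ccr7 (7.40), Fscn1 (6.23), Flt3 (5.36), Zbtb46 (4.47) and Ccl22 (3.68) to Clec9a (3.33). The ratio was smaller for the other 3 genes, at 1.48 for Irf8, 1.44 for Batf3 and 1.24 for Naaa.

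The genes were chosen with the height of b known, so the counting intervals of these ratios describe depth and test nothing. The ratio of b to the pooled other 3 had a counting interval of 6.03 to 13.3 for Xcr1, 6.92 to 10.8 for Ccr7 and 5.30 to 10.4 for Fscn1, and of 1.54 to 8.37 for Ccl22. The next highest library was a for 8 of the 10 genes, and 7 genes had the order b, a, c, d. For Ccr7, Fscn1 and Zbtb46, a stood at 3.73, 3.86 and 3.39 times the mean of c and d. The order b and then a is also that of the totals from the smallest up, since b had 725683 counts and a 1182437, and the part of depth was not tested.

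**Figure D2:**
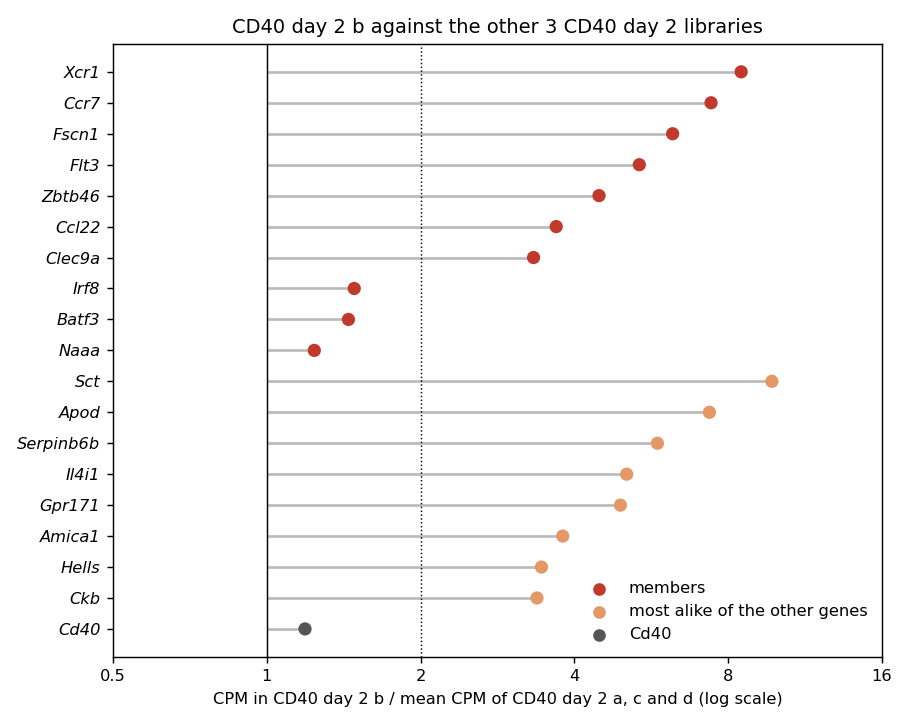
Ratio of the CPM in CD40 day 2 b to the mean CPM of CD40 day 2 a, c and d, on a log scale, for the 10 members (red), the 8 other genes that stood out most in b (orange) and Cd40 (grey). The dotted line marks 2; 7 members lie beyond it, from 3.33 to 8.48, while Irf8, Batf3, Naaa and Cd40 lie between 1.19 and 1.48.

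Cd40 did not follow this pattern, with a ratio of b to the mean of the other 3 of 1.19. The classical monocyte sum was lowest in b, at 16690 CPM against 19989 to 23783 CPM in the other 3. Chil3, a chitinase-like protein of monocytes, stood at 147 CPM in b and at 812 to 927 CPM in the others. Natural killer cell markers summed to 283 CPM in b and to 172 to 202 CPM in the others, and neutrophil markers to 935 CPM in b and to 1378 to 1837 CPM in the others. Of these marker levels, the natural killer sum was highest in b, like the dendritic cell genes, and the others were lowest in b. Their part in the difference between b and the other CD40 libraries was not tested.

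The genes that stood out most in b were sought among 2483 genes with at least 50 counts in b. They were ranked by the ratio of b to the highest of the other 3 CD40 libraries, whatever the order of those 3. Xcr1 ranked first of them all, Ccr7 4th and Fscn1 9th. The 8 best-ranked genes outside the members were Apod, Sct, Serpinb6b, Amica1, Gpr171, Ckb, Hells and Il4i1. Sct, the hormone secretin, had 28.2, 117, 3.19 and 4.77 CPM in CD40 day 2 a to d, and 0 counts in both Kupffer libraries. Il4i1, an amino acid oxidase of mature dendritic cells, was at 77.4, 224, 39.6 and 15.5 CPM in CD40 day 2 a to d, against 4.02 and 4.18 CPM in Kupffer day 0. Both had the order b then a, as Ccr7 did.

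Apod, an apolipoprotein of the lipocalin family, stood at 13.7, 75.0, 6.83 and 10.1 CPM in CD40 day 2 a to d. Amica1, an adhesion molecule of leukocytes, had 48.2, 157, 37.8 and 38.1 CPM in the same libraries. Ckb, the brain-type creatine kinase, was at 75.5, 273, 86.5 and 80.4 CPM. In each of these 3 genes b was the highest library, and a, c and d lay closer to each other than to b. Serpinb6b, Amica1 and Il4i1 are also on the lists described next.

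Other genes of the dendritic cell programme were taken from 6 lists by role. Of 105 listed genes with enough counts, 57 passed the test as higher in CD40 day 2 and 16 as lower (edgeR quasi-likelihood test, two-sided, Benjamini-Hochberg adjustment over all genes), beside 23.2% and 30.2% of all genes tested. The lists' median log2 fold changes lay between 1.05 and 3.22, where the median of all genes tested was -0.10. The medians were the same with genes at 0 counts in Kupffer day 0 set at their bound. Some listed genes passed the count filter through 1 group only and could be called in 1 direction only. Ly75, Htr7, Adgrg5 and Ido1, at 0 counts in both Kupffer libraries, could only be higher. So could Tlr11, Bcl2l14, Il12b, Pdcd1lg2 and Runx2, with 0 to 2 counts in each Kupffer library, among others. Mical3, Adcy6 and Adam23, with 0 to 7 counts in each CD40 library, were among those that could only be lower. The lists were also chosen with earlier results of these data known, so their counts describe and do not test.

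**Figure D3:**
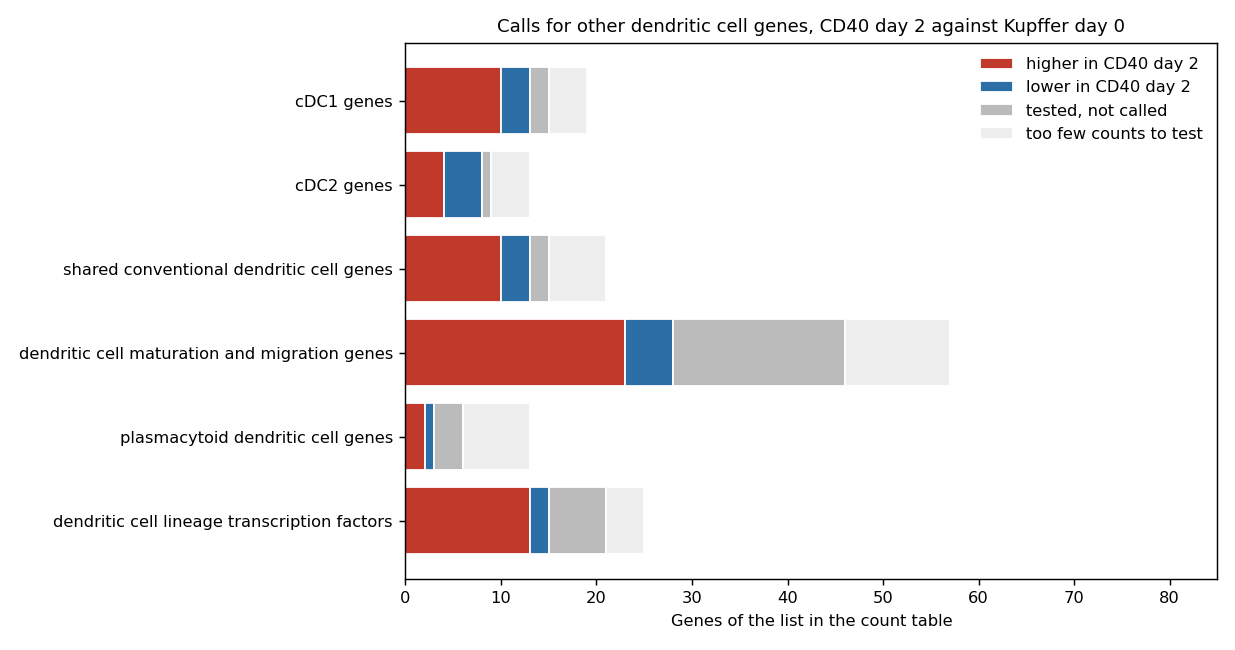
Number of genes on each of 6 lists of other dendritic cell genes that were higher (red) or lower (blue) in CD40 day 2 against Kupffer day 0 at an adjusted p under 0.05, tested without a call (grey) or had too few counts (pale). The maturation list has 23 higher and 5 lower of 46 tested, and the cDC2 list 4 of each of 9 tested.

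Of 15 tested cDC1 genes, 10 were higher and 3 lower. Ifi205, an interferon-inducible DNA-binding protein, had a mean of 137 CPM in CD40 day 2 (SD 27.2, n = 4) against 5.82 CPM in Kupffer day 0 (SD 2.32, n = 2), a log2 fold change of 4.40 (SE 0.34, edgeR adjusted p = 5.3e-06). Ppt1, a lysosomal thioesterase, averaged 760 ± 96.9 CPM in CD40 day 2 and 153 ± 10.1 CPM in Kupffer day 0, and Nfil3, a transcription factor upstream of cDC1, 133 ± 34.0 CPM in CD40 day 2 and 11.6 ± 3.35 CPM in Kupffer day 0. Among those lower, Plpp1, a lipid phosphatase, averaged 174 ± 80.3 CPM in CD40 day 2 and 3202 ± 12.8 CPM in Kupffer day 0, and Cadm1, an adhesion molecule, 5.97 ± 4.70 CPM in CD40 day 2 and 25.3 ± 1.66 CPM in Kupffer day 0. These genes are not restricted to dendritic cells.

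Among 15 tested genes shared by conventional dendritic cells, 10 were higher and 3 lower. Slamf7, a receptor of the SLAM family, averaged 332 ± 50.4 CPM in CD40 day 2 and 14.0 ± 1.90 CPM in Kupffer day 0 (log2 fold change 4.60 ± 0.26 SE, edgeR adjusted p = 1.17e-06). Ass1, an enzyme of arginine synthesis, was at 117 ± 22.1 CPM in CD40 day 2 and 6.35 ± 0.864 CPM in Kupffer day 0, and Hmgn3, a nucleosome-binding protein, at 125 ± 47.8 CPM in CD40 day 2 and 12.01 ± 0.743 CPM in Kupffer day 0. Kit, the stem cell factor receptor, was lower, at 10.99 ± 5.75 CPM in CD40 day 2 and 226 ± 46.4 CPM in Kupffer day 0, as was Adam23, a membrane protein, at 2.21 ± 1.44 CPM in CD40 day 2 and 126 ± 30.9 CPM in Kupffer day 0.

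The maturation and migration list had 23 of 46 tested genes higher and 5 lower. Ebi3, a subunit of the cytokines IL-27 and IL-35, averaged 276 ± 30.5 CPM in CD40 day 2 and 28.7 ± 0.787 CPM in Kupffer day 0 (log2 fold change 3.27 ± 0.21 SE, edgeR adjusted p = 2.03e-06), and the chemokine Ccl5 and the proteasome activator Psme2 were higher as well. Adcy6, an adenylyl cyclase, was lower, at 1.65 ± 1.30 CPM in CD40 day 2 and 22.8 ± 7.11 CPM in Kupffer day 0, and so was Mical3, a regulator of actin and vesicles, at 0.263 ± 0.309 CPM in CD40 day 2 and 8.94 ± 2.79 CPM in Kupffer day 0. Relb and Nfkb2, partners in the non-canonical NF-kappaB pathway, were among those higher, whereas Cd83, a surface marker of mature dendritic cells, did not pass, at 424 ± 289 CPM in CD40 day 2 and 242 ± 18.8 CPM in Kupffer day 0 (edgeR adjusted p = 0.204). Relb, Nfkb2 and Cd83 are named after their values were seen.

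Genes of type 2 conventional dendritic cells (cDC2) went both ways, with 4 of 9 higher and 4 lower. The inhibitory receptor Sirpa was at 376 ± 98.3 CPM in CD40 day 2 and 161 ± 5.64 CPM in Kupffer day 0, and the NF-kappaB regulator Tnip3 and the receptor Notch2 were also higher, Notch2 by a log2 fold change of 1.05 that did not pass without either Kupffer library. Klf4, a transcription factor, and Esam, an adhesion molecule that endothelial cells share, were lower. Irf4, the defining factor of cDC2, had too few counts to test, with 1.41 to 2.73 CPM in CD40 day 2 and 1.72 and 1.39 CPM in Kupffer day 0.

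Of the plasmacytoid dendritic cell genes, 2 of 6 tested were higher and 1 lower. Irf7, a master regulator of type I interferon, averaged 1915 ± 368 CPM in CD40 day 2 and 280 ± 15.8 CPM in Kupffer day 0, and Runx2 9.69 ± 4.14 CPM in CD40 day 2 and 1.27 ± 0.173 CPM in Kupffer day 0. Tcf4, the factor that defines this lineage, was lower, at 27.6 ± 7.72 CPM in CD40 day 2 and 178 ± 9.99 CPM in Kupffer day 0. Siglech, the defining surface receptor of the lineage, had 0 to 2.83 CPM in CD40 day 2 and 2.87 and 1.39 CPM in Kupffer day 0. All 10 endothelial markers were lower in CD40 day 2 as well, and their part in the levels of Tcf4 and of Kit was not tested.

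Lineage transcription factors beyond the members numbered 21 with enough counts, of which 13 were higher and 2, Tcf4 and Klf4, lower. Spi1, which encodes PU.1, averaged 342 ± 20.6 CPM in CD40 day 2 and 58.5 ± 3.95 CPM in Kupffer day 0 (log2 fold change 2.55 ± 0.18 SE, edgeR adjusted p = 3.27e-06), and Batf, a relative of Batf3, 153 ± 10.4 CPM in CD40 day 2 and 27.9 ± 5.99 CPM in Kupffer day 0. Both varied little among the CD40 libraries. Monocytes express Spi1 as well, and 8 of 10 classical monocyte markers were higher in CD40 day 2. Their part in these list counts was not tested.

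Without CD40 b, the numbers higher were 10 cDC1, 5 cDC2, 10 shared, 24 maturation, 2 plasmacytoid and 13 transcription factor genes, so the contrast with Kupffer day 0 was as large by these counts without that library. Over the whole table, 2551 genes were higher without CD40 b, beside 2288 with all libraries. Leaving out either Kupffer library leaves 1 in that group, assumed to vary like the others. Fewer genes then passed as higher over the whole table as well as in most lists, so that fall is not particular to the dendritic cell genes.

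The lists were also set against the CD40 libraries one by one. Of the 105 genes, 37 (35.2%) were over 2 times the mean of the other 3 CD40 libraries in b, beside 6.18% of all genes tested. The like share was 4.76% in a, 0.952% in c and 2.86% in d, beside 5.79%, 2.46% and 4.11% of all genes tested. In b it was 8 of 15 shared genes, 7 of 15 cDC1 genes, 14 of 46 maturation genes, 3 of 9 cDC2 genes, 3 of 6 plasmacytoid genes and 4 of 21 transcription factors. That a conventional dendritic cell list was highest in b was already known when these lists were written, so they are not independent of it.

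**Figure D4:**
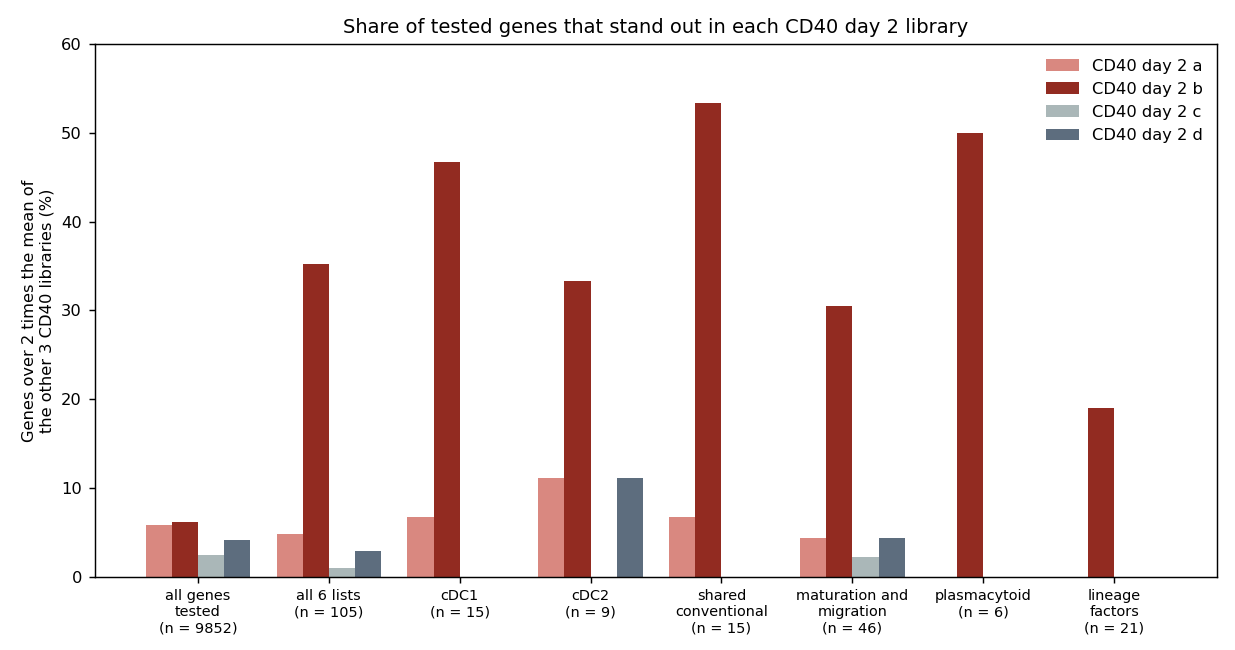
Share of the tested genes of each list whose CPM was over 2 times the mean of the other 3 CD40 day 2 libraries, for libraries a to d. Library b reaches 35.2% over all 6 lists, against 6.18% of all genes tested, while a, c and d stay between 0.952% and 4.76% over the 6 lists.

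Several genes named here after their values were seen show the pattern gene by gene. Wdfy4, which cDC1 need for cross-presentation, was at 11.8, 48.1, 17.3 and 13.7 CPM in CD40 day 2 a to d, against 5.74 and 2.79 CPM in Kupffer day 0. Adgrg5, an adhesion receptor of the shared list, had 19.1, 62.2, 10.5 and 5.96 CPM in CD40 day 2 and 0 counts in both Kupffer libraries. Kmo, an enzyme of tryptophan breakdown on the same list, stood at 49.2, 120, 10.01 and 11.3 CPM in CD40 day 2, against 4.02 and 4.18 CPM in Kupffer day 0.

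Among genes with too few counts to test, Gcsam, a cDC1 list gene, was at 3.64, 43.9, 2.28 and 1.19 CPM in CD40 day 2 a to d. Cacnb3, a calcium channel subunit of the maturation list, was at 4.55, 45.3, 1.82 and 0.596 CPM, and Cd8a, which lymphoid cDC1 of the mouse carry, at 2.73, 29.7, 3.19 and 5.36 CPM. Each of these was far higher in b than in a, c or d. Cd74 and Ciita, the invariant chain and the master regulator of MHC class II, were also highest in b, at 12156 and 253 CPM, beside 4949 to 8433 CPM and 97.7 to 122 CPM in the other 3 CD40 libraries. The cDC2 gene Cd209a was not, with 2.83 CPM in b and 2.28 to 6.37 CPM in the others. Other genes on these lists were not high in b either. Itgae and Clnk of the cDC1 list and Ccl17 of the maturation list had 0 counts in b. Nfil3 was at 92.0 CPM in b and at 120 to 168 CPM in the others. Il12b was at 32.5 CPM in b and at 45.5 to 81.0 CPM in the others. Library b was the highest for 10 of 15 tested cDC1 genes and 23 of 46 tested maturation genes, beside 30.2% of all genes tested.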

How the data were processed

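The authors deposited raw counts, whole numbers per gene symbol, in 12 columns, per the file headers. Build GRCm38.p6 and DESeq2 1.22.2 are named in the submitters' processing notes. The aligner, counting program, strand use and handling of molecular identifiers: not given in the sources used here. No column belonged to no sample. Columns of the other 2 groups were not read by gene. Their values seem sorted apart from the gene names: the small RNA gene n-R5s8 holds 51 to 2387 counts in each of them and 0 in the 6 libraries used. Kupffer day 0 a descends along the whole table, so the table is in its order.

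The 4 CD40 day 2 and 2 Kupffer day 0 libraries were fitted with edgeR 4.0.16 in R 4.3.3 (quasi-likelihood test, TMM, filterByExpr, no block; adjusted p threshold 0.05), which gave a biological coefficient of variation of 20.4%. The fit recovered known changes on simulated data. Those data had few changed genes, the same dispersion for every gene and no library set apart. They differ in this from the real libraries and do not vouch for the fit here. Every pair of libraries within a group differed beyond sampling noise, with chi-square over its degrees of freedom at 3.17 to 11.7. Gene positions are from GENCODE M21 (GRCm38).

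The members and lists were chosen with earlier results of these data known. Besides the members and Cd40, up to 3 genes higher and 2 lower by lowest adjusted p were named per list, with 8 genes that stood out most in library b. Alternatives were DESeq2 1.42.0, RLE scaling, 2 other filters, a fit of all 12 libraries and leaving out each library.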

Additional observations from a re-analysis of the deposited data

Results flagged for a closer look

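Values of the 4 CD40 day 2 libraries were examined for a single library set apart from the other 3, by the share of the range that lies between it and its nearest neighbour (Dixon's test at the 95% level). Of 59 levels examined, 7 passed. Chance flags about 1 in 20 groups that were not chosen by their values, but many of these were, so the number is not read against that rate. Library b stood high for 5 of them, the member Xcr1 (0.893) and 4 genes that were picked for their height in b, Apod (0.900), Amica1 (0.912), Ckb (0.945) and Hells (0.852). Library a stood high for Plpp1 (0.871) and for the summed endothelial markers (0.879), which were 664 CPM in a and 232 to 284 CPM in the other 3. Groups of 2 were not examined in this way.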

How the results depend on the processing

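No paired analysis was possible because the columns carry no replicate numbers. For each of the 10 members the direction against Kupffer day 0 was the same under DESeq2, RLE scaling, both other filters, the fit of all 12 libraries and with each library left out, except that Xcr1 without Kupffer day 0 a and Ccl22 without Kupffer day 0 b gave no value, since the remaining Kupffer library holds 0 counts. Library b stood over 2 times the mean of the other 3 for 7 members under each alternative run. By the size of this log2 ratio, 5 member values under other processing counted as moved and 25 as the same. Against Kupffer day 0, the log2 ratio of Batf3 moved from 2.05 to 2.63 without Kupffer day 0 b. Over the table, leaving out 1 library gave 1406 to 2551 genes higher (2288 with all) and 1800 to 2963 lower (2974 with all). The ranges of genes higher were 6 to 10 for cDC1, 2 to 5 for cDC2, 6 to 11 for shared, 15 to 24 for maturation, 1 to 3 for plasmacytoid and 5 to 13 for transcription factor genes. Those lower ranged over 2 to 3, 3 to 4, 3 to 4, 1 to 6, 1 to 1 and 2 to 3 in the same order of lists. The lowest numbers of genes higher came without Kupffer day 0 a, which leaves 1 library in that group. With at least 10 counts required in 4 libraries, which tests fewer genes, 1 cDC1 gene was lower and 1 plasmacytoid gene higher. Runx2 was not called without Kupffer day 0 a, nor Notch2 without either Kupffer library. Depth limits Flt3, Clec9a, Xcr1 and Ccl22 most, with 1 to 11 counts in the Kupffer group. All 12 columns enter 1 alternative only, although 6 of them may not follow the gene names.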

Other observations

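The 2 Kupffer day 0 libraries differed in some dendritic cell genes. Clec9a stood at 2.79 CPM in b and 5.17 CPM in a, from 2 and 9 counts, and Xcr1 at 0 and 2.30 CPM, from 0 and 4 counts. Those counts are too few to show that b was lower for either gene. Ccr7 stood at 15.3 CPM in b and 4.02 CPM in a, from 11 and 7 counts, and Batf3 at 44.6 and 22.4 CPM. Cd74 was at 1124 CPM in b and 529 CPM in a, and Cd209a at 27.9 and 4.59 CPM. Flt3, Zbtb46, Irf8, Naaa and Fscn1 differed between them by ratios of 0.842 to 1.62. Kupffer day 0 b also had more hepatocyte marker counts (1432 against 455 CPM) and more neutrophil marker counts (3050 against 878 CPM).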
